A study of Mus musculus with 7 samples.

Results

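T cells enter a tissue and stay there by means of adhesion receptors. Integrins are pairs of an alpha and a beta chain that bind ligands on other cells or in the matrix, and signals from the T cell receptor or chemokine receptors switch them to a high-affinity state. Selectin ligands such as PSGL-1 make the first, rolling contact with the vessel wall, and ICAM proteins are the counter-receptors of the integrin LFA-1 on endothelial cells, on antigen-presenting cells and on T cells themselves.

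The genes described here are 10 of the 55364 genes in the deposited counts, matched by gene symbol: the integrin chains Itgal, Itgb2, Itga4, Itgb1, Itgb7, Itgae and Itga1, the ligands Icam1 and Icam2, and Selplg, which encodes PSGL-1. They were read in intratumoral CD4 T cells, which were gated on CD45, CD3 and CD4 and taken from orthotopic tumours of the lung (C57BL/6 mice, over 8 weeks of age). The Control group (5 libraries) had the genotype I-AbF/F, a loxP-flanked MHC class II allele without Cre, and the Cre group (2 libraries) had the genotype I-AbF/FCol1a2-cre, in which Cre is driven by the Col1a2 promoter that is active in fibroblasts. Mice of both groups were given tamoxifen, and the recombination targeted fibroblasts rather than the sequenced cells. The comparison asks whether CD4 T cells in the tumour differ when fibroblasts cannot present antigen on MHC class II, and nothing in these 10 genes checks the deletion itself.

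Libraries held 1484655 to 1724346 counts in the Control libraries and 1929899 and 1449739 in Cre. Of 9854 tested genes, 25.01% and 33.6% had no count in Cre replicates 1 and 2. The share was 1.14% in Control replicate 1 and 12.3% to 16.1% in the other Control libraries. Genes could enter the test through Control libraries alone, so these shares are partly set by the filter on low counts. Without that filter and at equal depth, 8759 and 7896 genes were detected in Cre replicates 1 and 2, against 9983 to 14603 in Control. Fewer genes were thus detected in each Cre library than in any Control library. All 10 CD4 T cell markers were present, with summed levels of 4906 to 6275 CPM (a gene's counts as a share of all counts of its library, rescaled) in the Control libraries and 6337 and 5146 CPM in Cre. Macrophage and monocyte markers, from cells that carry other integrins, summed to 13.9 to 48.0 CPM in the Control libraries and to 1.04 and 4.83 CPM in Cre, with Adgre1 at 0 in all libraries. Platelet markers were at 0 in all libraries (0 of 5 with a count), and of 8 endothelial markers Cdh5, Tie1, Tek and Emcn were. Fibroblast markers summed to 189.9 to 793 CPM in the Control libraries and to 345 and 57.9 CPM in Cre, with Pdgfrb at 0 in all libraries. The part of such cells in the results was not tested.

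All 10 adhesion genes passed the filter on low counts, and none passed edgeR's quasi-likelihood test between Cre and Control (adjusted p = 0.429 to 0.918 over all tested genes). Over all genes 0.0101% were called lower and 0% higher, so the count of 0 of 10 is read against a background of almost no calls. At an unadjusted p under 0.05 the same test had 0 of the 10 in either direction, where all tested genes had 1.41% higher and 10.2% lower. DESeq2 called 0 of the 8 to which it gave an adjusted p (Itgae and Itga1 had none), and limma voom called 0 of the 10. Over all 9854 tested genes DESeq2 called 6.16% lower and 0.355% higher, with genes lacking an adjusted p counted as not called. The shares by voom were 0.0304% higher and 0% lower. In the authors' deposited table the smallest FDR among the 10 was 0.349, for Itgb7, beside 0.211% of its genes called higher and 3.64% called lower. Fitted values were lower in Cre for 8 of the 10, against 60.1% of all tested genes, and the median log2 difference of the 10 was −1.05 against −0.39 over all genes. The 8 include Itgae and Itga1, which passed the filter through Control libraries alone. That all but fixes a lower value in Cre, and both enter the median. A miss of the threshold does not show that levels were equal: standard errors ran from 0.39 to 2.75 on the log2 scale.

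**Figure D1:**
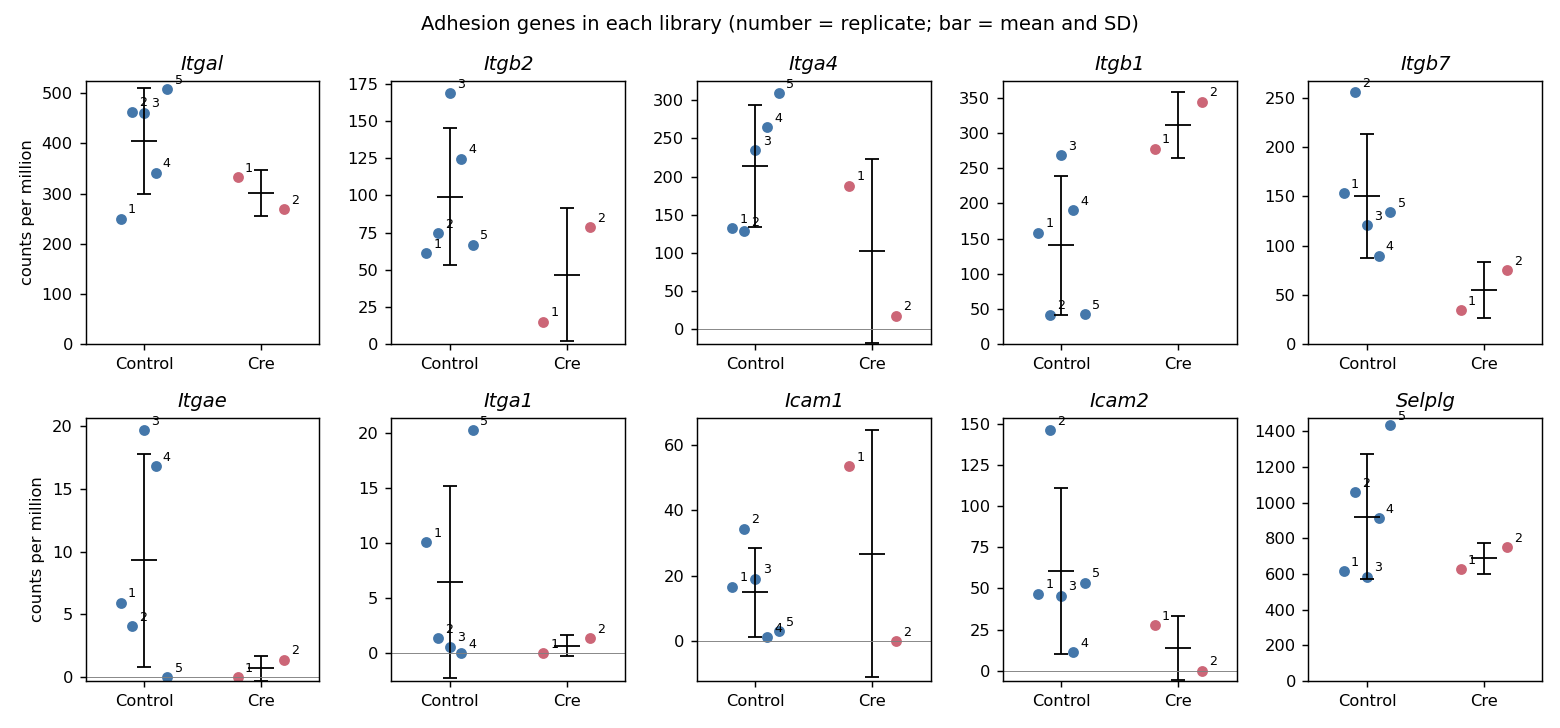
Level of each adhesion gene in CPM (y axis, each panel on its own scale) in the 5 Control and 2 Cre libraries. Points are libraries with their replicate number, and bars give the mean and SD; both Cre points lie above all Control points for Itgb1 and below all of them for Itgb7.

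LFA-1, the integrin with which T cells hold on to ICAM-bearing cells, is made of the alpha L chain (Itgal) and the beta 2 chain (Itgb2). Itgal stood at 249.7, 463, 461, 342 and 508 CPM in Control replicates 1 to 5, while Cre replicates 1 and 2 had 333 and 269 CPM. Both Cre values lie inside the Control range, in its lower part. The means were 405 ± 106 CPM (SD, n = 5) and 301 ± 45.0 CPM (n = 2), with a log2 fold change (± SE) of −0.40 ± 0.39 (edgeR adjusted p = 0.739). With an SD of 26.3% of its mean over the Control libraries, Itgal varied least of the 10 genes there, though counting error alone would give 3.91%.

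Itgb2, the chain shared by LFA-1 and the myeloid integrins, stood at 61.1, 74.8, 169, 125 and 67.0 CPM in the Control libraries and at 15.03 and 78.6 CPM in Cre. Cre replicate 1, with 29 counts, is the lowest of all 7 libraries, and replicate 2 lies inside the Control range. The log2 fold change was −1.09 ± 0.88 (edgeR adjusted p = 0.66). It was −0.32 without Cre replicate 1 and −2.66 without Cre replicate 2, so its size rests on which Cre library is used. The median over all tested genes was −2.40 without Cre replicate 1 and −1.22 without Cre replicate 2. The filter on low counts was rerun in these fits. They tested 11613 and 11685 genes, against 9854 with all libraries kept, so the medians cover different sets of genes. The alpha chains that pair with beta 2 in myeloid cells were near 0: Itgam had 34 counts in Control replicate 3, 1 in Cre replicate 2 and 0 elsewhere, and Itgax had 3 and 2 counts in Control replicates 1 and 3 and 0 elsewhere.

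The alpha 4 chain (Itga4) pairs with beta 1 (Itgb1) as VLA-4, which binds VCAM-1 and fibronectin, and with beta 7 (Itgb7) as the receptor for the mucosal addressin MAdCAM-1. Itga4 stood at 132, 129, 234, 265 and 309 CPM in the Control libraries and at 188 and 17.2 CPM in Cre. Cre replicate 1 lies inside the Control range, while replicate 2, with 25 counts, lies far below it. The means were 214 ± 80.6 CPM and 103 ± 121 CPM, with a log2 fold change of −1.02 ± 0.78 (edgeR adjusted p = 0.626). Without Cre replicate 2 the log2 fold change was −0.12, where the median over all tested genes was −1.22. Without Cre replicate 1 it was −3.60, where that median was −2.40. Each of these fits has a single Cre library, which is assumed to vary as the Control libraries do.

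Itgb1 was the only 1 of the 10 genes with both Cre libraries above every Control library. It stood at 158, 41.8, 269, 190.2 and 42.4 CPM in the Control libraries and at 278 and 344 CPM in Cre. The gap between Control replicate 3 and Cre replicate 1 is small beside the spread of the Control libraries, whose lowest and highest values lie far apart. The means were 140.3 ± 98.3 CPM and 311 ± 47.0 CPM, a log2 fold change of 1.14 ± 0.68 (edgeR unadjusted p = 0.121, adjusted p = 0.474). Over all tested genes 4.05% had both Cre libraries above every Control library. With upper-quartile scaling the groups overlapped, at a Control maximum of 271 and a Cre minimum of 266 scaled CPM.

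Itgb7 went the other way and was the only 1 of the 10 with both Cre libraries below every Control library. It stood at 153, 255, 121, 89.9 and 134 CPM in the Control libraries and at 34.7 and 75.2 CPM in Cre. The groups did not overlap under any of the 4 scalings tried. The means were 150.5 ± 62.9 CPM and 55.0 ± 28.6 CPM, a log2 fold change of −1.46 ± 0.68 (edgeR unadjusted p = 0.0521, adjusted p = 0.429). It was −0.99 without Cre replicate 1 and −2.06 without Cre replicate 2. Over all tested genes 10.9% had both Cre libraries below every Control library.

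Since both beta chains compete for alpha 4, their counts were also set against each other within each library, a comparison chosen after their values were seen that needs no scaling between libraries. The ratio of Itgb1 to Itgb7 counts was 1.03, 0.164, 2.23, 2.12 and 0.317 in Control replicates 1 to 5, while Cre replicates 1 and 2 had 8.00 and 4.58. Both Cre libraries thus lie above all Control libraries, and among the Control libraries the ratio already ranged widely, with replicates 2 and 5 low and replicates 3 and 4 high. The mean log2 ratio was −0.40 ± 1.68 (SD, n = 5) in the Control libraries and 2.60 ± 0.57 (n = 2) in Cre, a difference of 2.99. No test is given, because genes chosen for lying above and below all Control libraries must separate the groups in their ratio. Leaving out any 1 library kept the difference between 2.44 and 3.40. The same choice of genes fixes its sign, so this range adds no support. The ratio compares libraries and does not say which chain is the more abundant, because the counted regions differ in length.

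**Figure D2:**
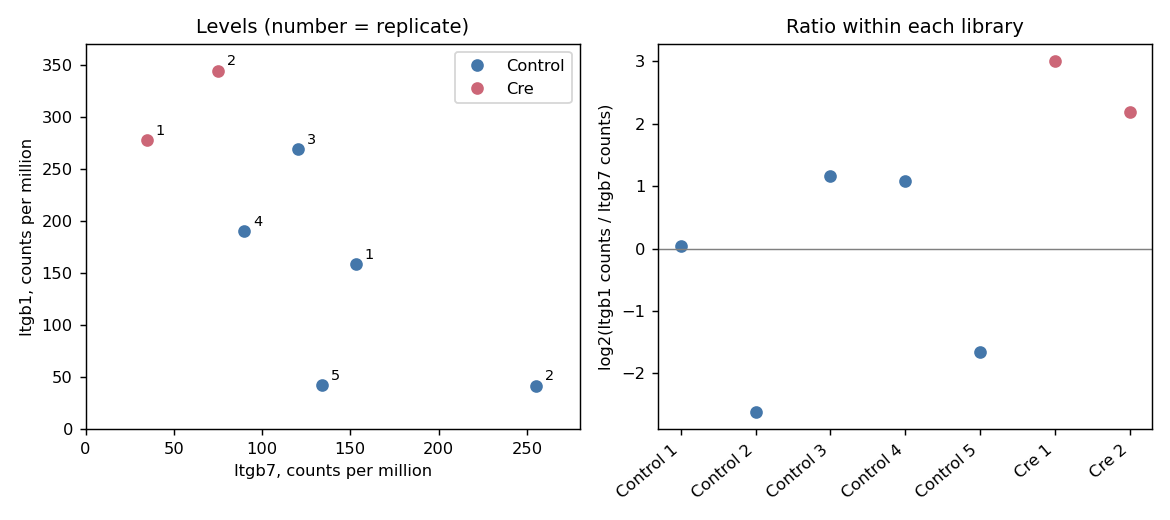
Left, Itgb1 against Itgb7 in CPM in each library (points, with the replicate number); right, the log2 ratio of Itgb1 to Itgb7 counts in each library. The Cre points lie at high Itgb1 and low Itgb7, with log2 ratios of 2.19 or more, above the highest Control value of 1.16.

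The end of Itgb7 overlaps the end of Zfp740 on the other strand. Of the 414 bases of the counted Itgb7 region (chromosome 15, 102215746 to 102216159, mm10), 165 lie within the gene and 110 are shared with the Zfp740 region. Zfp740 had 263, 200, 49, 59 and 233 counts there in the Control libraries and 325 and 309 in Cre, against 258, 379, 196, 155 and 218 counts in the Control libraries and 67 and 109 in Cre for Itgb7. Zfp740 is thus highest in the Cre libraries, where Itgb7 is lowest. The use of strand in counting is not given in the sources used here, so reads from the shared bases cannot be told apart.

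The alpha E chain (Itgae, CD103) pairs with beta 7, binds E-cadherin on epithelial cells and marks many resident T cells. It had 10, 6, 32, 29 and 0 counts in the Control libraries and 0 and 2 in Cre. Control replicate 5 is as low as the Cre libraries, so the groups overlap. Summed over libraries this is 2 counts in Cre against 77 in Control, a ratio of levels of 0.0626 (exact 95% interval 0.00745 to 0.234, counting error only). The fit gave an adjusted p of 0.596 in edgeR, and the gene passed the filter through Control libraries alone.

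The alpha 1 chain (Itga1, CD49a) pairs with beta 1 as a collagen receptor. It had 17, 2, 1, 0 and 33 counts in the Control libraries and 0 and 2 in Cre, a ratio of summed levels of 0.091 (exact 95% interval 0.0107 to 0.345, counting error only; edgeR adjusted p = 0.699). It too passed the filter through Control libraries alone. Few of these counts lie at the end of the collagen receptor's mRNA: the terminal 3′ region held 14 counts, all in Control replicate 1. The 33 counts of Control replicate 5 all lie in an intronic region at 115033815 to 115034063 on chromosome 13, just past the end of an annotated retained-intron transcript. The other 6 libraries had 0 counts in the terminal region, which allows up to 3 counts or 1.55 to 2.07 CPM each.

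ICAM-1 and ICAM-2 are both ligands of LFA-1. Icam1, which inflammatory cytokines induce, had 28, 51, 31, 2 and 5 counts in the Control libraries and 103 and 0 in Cre. The highest and the lowest of all 7 libraries are thus the 2 Cre libraries. The log2 fold change of 0.87 ± 1.91 (edgeR adjusted p = 0.918) turned to −7.58 without Cre replicate 1 and was 1.89 without Cre replicate 2. Without Cre replicate 1 the gene is at 0 in the remaining Cre library, and the fitted value depends on the prior count. The log2 fold change also turned to −0.93 with limma voom.

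Icam2, which is expressed without stimulation on endothelial cells and lymphocytes, had 79, 217, 74, 19 and 87 counts in the Control libraries and 53 and 0 in Cre. Cre replicate 1 lies inside the Control range and replicate 2 below it, and Control replicate 2 is the highest library. The means were 60.6 ± 50.6 CPM and 13.7 ± 19.4 CPM, a log2 fold change of −2.09 ± 1.67 (edgeR adjusted p = 0.653). Without Cre replicate 2 it was −1.08, and without Cre replicate 1 it was −9.59, where the gene is at 0 in the remaining Cre library and the fitted value depends on the prior count. Endothelial markers summed to 21.5 to 68.7 CPM in the Control libraries and to 66.3 and 6.21 CPM in Cre, which are also higher in Cre replicate 1. Most of that sum was Pecam1, which T cells express as well, with 128 and 9 counts in Cre.

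**Figure D3:**
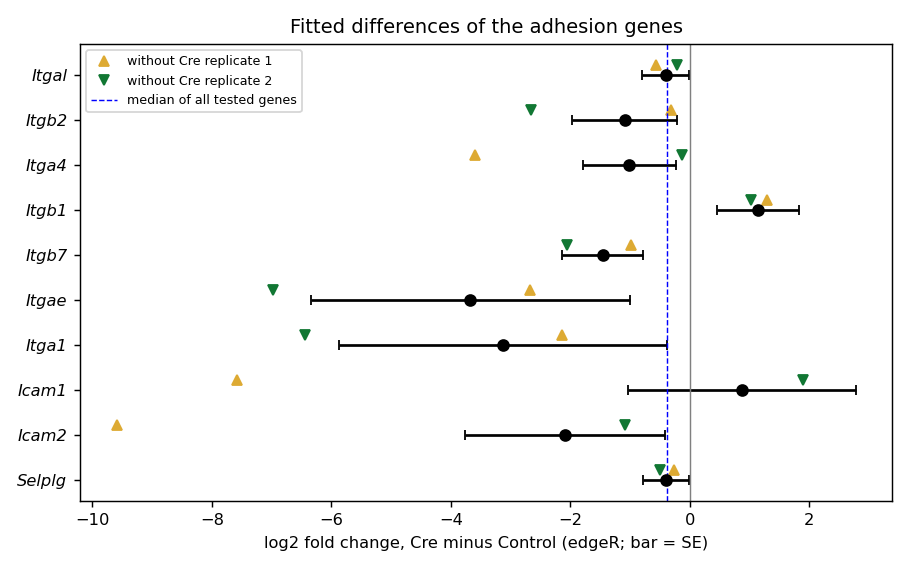
Log2 fold change of each adhesion gene, Cre minus Control (x axis), with its SE as a bar, and the value without each Cre library as triangles. The dashed line is the median of all tested genes with all libraries kept, −0.39. It does not apply to the triangles, whose fits had all-gene medians of −2.40 without Cre replicate 1 and −1.22 without Cre replicate 2. Those medians are over 11613 and 11685 tested genes, against 9854 for the dashed line. Triangles far apart mark genes whose value rests on 1 Cre library, such as Itga4 (−3.60 and −0.12) and Icam1 (−7.58 and 1.89). Icam1 is at 0 in the Cre library behind the −7.58, which depends on the prior count.

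PSGL-1 (Selplg), the ligand with which T cells roll on P-selectin, stood at 615, 1059, 584, 913 and 1433 CPM in the Control libraries and at 625 and 750 CPM in Cre. Both Cre values lie inside the Control range, in its lower part, and the log2 fold change was −0.40 ± 0.39 (edgeR adjusted p = 0.734). These counts come from 2 places in the gene. The terminal region (chromosome 5, 113818287 to 113818989, minus strand) holds the end of the coding sequence and the 3′ UTR, and a second region at 113827910 to 113828158 is intronic, past the end of the retained-intron transcript Selplg-202. The intronic region held 43.9% of all Selplg counts.

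The share of Selplg counts in the intronic region was 42.2%, 40.7%, 11.3%, 38.1% and 60.03% in the Control libraries and 20.07% and 79.2% in Cre. The lowest and highest 95% Wilson intervals, 9.41% to 13.4% in Control replicate 3 and 76.7% to 81.5% in Cre replicate 2, lie far apart, and intervals cover counting error only. The libraries of 1 group thus differ more than the groups do: the mean share was 38.5% ± 17.5 in the Control libraries and 49.6% ± 41.8 in Cre, a difference of 11.2 percentage points (exact two-sided permutation p = 0.667; 2 libraries against 5 cannot go below 0.0952). The difference turned to −18.4 points without Cre replicate 2. In the terminal region alone Selplg had 355, 628, 518, 565 and 573 CPM in the Control libraries and 499.5 and 156 CPM in Cre. Counted there only, its log2 fold change was −0.66 ± 0.47 (edgeR adjusted p = 0.579), and Cre replicate 2 became the lowest library.

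**Figure D4:**
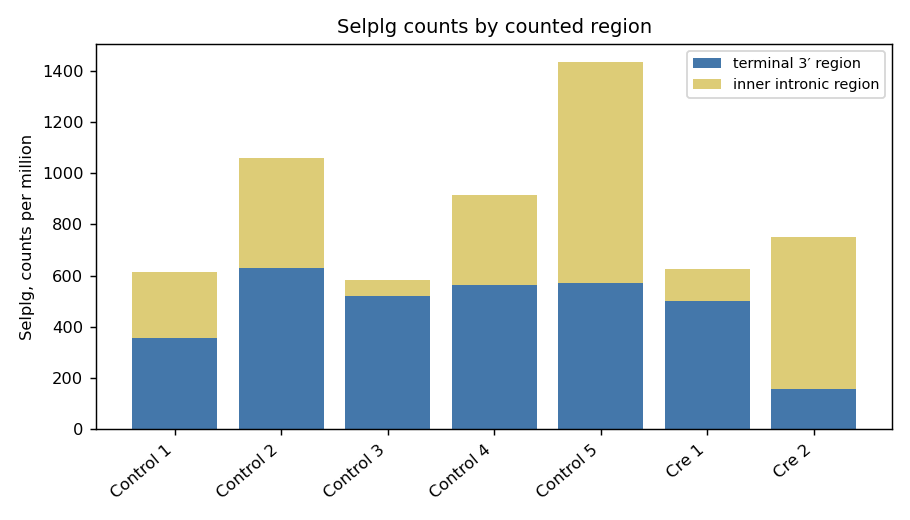
Selplg level in CPM in each library, stacked by counted region (blue, terminal 3′ region; yellow, inner intronic region). The inner part ranges from 11.3% of the counts in Control replicate 3 to 79.2% in Cre replicate 2.

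Most of the other genes were counted at 1 place. Itgal, Itgb7 and Itgae had all their counts in the terminal 3′ region, and Itgb2, Icam1 and Icam2 had 98.2% to 99.9% there. Itgb1 had 92.8%, with 90 of the 536 counts of Cre replicate 1 in a coding exon at 128722810 to 128723032 on chromosome 8. Counted at its end only, Itgb1 had a log2 fold change of 1.07 ± 0.69 (edgeR adjusted p = 0.52). Itga4 had 89.9%, with 98 counts in Control replicate 5 and 63 in Control replicate 4 at intronic regions past the ends of non-coding transcripts. Its terminal counts were 191, 191, 359, 394 and 405 in the Control libraries and 362 and 25 in Cre, and its log2 fold change there was −0.83 ± 0.77 (edgeR adjusted p = 0.718). The terminal regions of Itga4, Icam1 and Icam2 also overlap regions of Cerkl, Gm47079 and Prr29 on the other strand, which had 0 counts in all 7 libraries.

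The 10 genes lie on 9 chromosomes (mm10, start to end as the deposited table gives them): Itgal on chromosome 7 at 127296260 to 127335138, Itgb2 on 10 at 77530252 to 77565708, Itga4 on 2 at 79255426 to 79333123, Itgb1 on 8 at 128685654 to 128733200 and Itgb7 on 15 at 102215995 to 102231944. Itgae lies on 11 at 73090583 to 73147446, Itga1 on 13 at 114953096 to 115101964, Icam1 on 9 at 21015985 to 21028817, Icam2 on 11 at 106377656 to 106388075 and Selplg on 5 at 113818536 to 113832644. Their positions were the same in GENCODE M21 for all 10.

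Spread among the Control libraries was larger than counting error for each of the 10 genes. The SD was 26.3% to 46.6% of the mean for Itgal, Itga4, Selplg, Itgb7 and Itgb2 and 70.0% for Itgb1, where counting alone would give 2.59% to 7.85%. It was 83.5% to 135% for Icam2, Icam1, Itgae and Itga1, which had the fewest counts, against 10.2% to 30.7% from counting. Levels were summed over all cells of a library, so fewer cells of a type and less RNA per cell cannot be told apart. Summed over the 10 genes, levels were 1449 to 2570 CPM in the Control libraries and 1554 and 1537 CPM in Cre, of which Selplg and Itgal made up the larger part.

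Other genes of the adhesion system were taken from 4 lists with 118 genes, of which not all were tested. None of the tested ones passed edgeR in either direction, where 0.0101% of all tested genes were called lower and 0% higher. Of 19 further integrin chains, 13 had any count and 5 were tested. Itgb3, the chain of the vitronectin receptor, had 70.3 ± 44.2 CPM in the Control libraries and 59.4 ± 24.5 CPM in Cre (edgeR adjusted p = 0.962), and Itga6, a laminin receptor chain, 74.2 ± 67.6 and 61.5 ± 74.3 CPM (0.967). The other tested chains were low. Itga5, of the fibronectin receptor, had 57, 17, 0, 0 and 0 counts in the Control libraries and 0 in Cre, Itgb8 had 21 and 20 counts in Control replicates 1 and 5 and 0 elsewhere, and Itga7 had 0 to 62 in the Control libraries and 1 and 0 in Cre. Itgav, below the filter, had 25 and 1 counts in Control replicates 1 and 4, 6 in Cre replicate 2 and 0 elsewhere. All 5 tested chains had lower fitted values in Cre, with a median log2 difference of −5.22, the value of Itga7. Itga5, Itga7 and Itgb8 entered the test through Control counts alone, which all but fixes a lower value in Cre. Itga6 and Itgb3, counted in both groups, had log2 fold changes of −0.21 and −0.23. With the 2 chains at 0 in Cre, Itga5 and Itgb8, set at their bounds (3 counts over both Cre libraries), the median was −2.48.

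Of 47 genes that activate integrins or tie them to the cytoskeleton, 42 were tested, 14 with higher and 28 with lower fitted values in Cre (median log2 difference −0.23). At an unadjusted edgeR p under 0.05, 0 were higher and 3 of the 42 lower (Pxn, Evl and Sharpin), where 10.2% of all tested genes were lower. Pxn, the adaptor paxillin at integrin contacts, had 42, 9, 54, 34 and 51 counts in the Control libraries and none in Cre. Against a limit of 3 counts over both Cre libraries, this is at least 26.0-fold below the Control mean (counting error only). Pxn was the only 1 of the 42 at 0 in both Cre libraries, where 1351 of all 9854 tested genes were. It entered the test through its Control counts alone, and passed DESeq2 (adjusted p = 0.00761) and not edgeR (adjusted p = 0.367). Evl, an actin regulator, had 123 ± 62.1 CPM in the Control libraries and 30.5 ± 17.7 CPM in Cre, and Sharpin, which holds integrins inactive, 94.96 ± 41.4 and 23.6 ± 4.05 CPM, both with the Cre libraries below every Control library (edgeR adjusted p = 0.422 and 0.429).

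Among the proteins that switch integrins on, fitted values went in both directions and none passed the threshold. Fermt3 (kindlin-3) stood at 114 ± 58.5 CPM in the Control libraries and 26.0 ± 25.7 CPM in Cre (log2 fold change −2.13 ± 0.98, edgeR adjusted p = 0.429), with Cre replicate 2 inside the Control range. Its log2 fold change was −1.34 without Cre replicate 1 and −3.79 without Cre replicate 2. Talin (Tln1), which links the beta tail to actin, had 86.9 ± 26.3 and 50.2 ± 45.6 CPM. Rap1b, the small GTPase that starts activation, had 709 ± 176 CPM in the Control libraries and 772 ± 16.4 CPM in Cre, and its effectors Apbb1ip (RIAM) 145 ± 98.6 and 274 ± 177 CPM and Rassf5 (RAPL) 216 ± 104 and 265 ± 173 CPM. The adaptor Fyb (ADAP) had 195 ± 44.5 and 131 ± 51.5 CPM. Each of these 5 had an edgeR adjusted p of 0.621 or more. Ilk, integrin-linked kinase, had 9 to 30 counts in the Control libraries and 2 and 0 in Cre, below every Control library (edgeR adjusted p = 0.431). It entered the test through its Control counts alone. Dok1, an inhibitor of integrin activation, had 115 ± 71.7 CPM in the Control libraries and 34.1 ± 12.3 CPM in Cre (edgeR adjusted p = 0.43).

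In the list of selectins and the enzymes that decorate PSGL-1, 17 of 21 genes were tested, 8 with higher and 9 with lower fitted values (median −0.0083). Spn (CD43), the other large sialomucin of T cells, had 750.1 ± 177 CPM in the Control libraries and 834 ± 45.8 CPM in Cre (edgeR adjusted p = 0.93). Cd44, the hyaluronan receptor and a further E-selectin ligand, had 112 ± 31.5 CPM in the Control libraries and 26 and 0 counts in Cre, below every Control library; it was called by DESeq2 (adjusted p = 0.00518) and not by edgeR (adjusted p = 0.38). Without Cre replicate 1, which leaves a single Cre library at 0 counts, its log2 fold change was −10.5, and without Cre replicate 2 it was −2.99. The medians over all tested genes in those fits were −2.40 and −1.22.

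The glycosylation enzymes were low and uneven. Fut7, the fucosyltransferase that completes selectin ligands, had 26 and 22 counts in Control replicates 1 and 3 and 0 in all other libraries, and Gcnt1, which builds the branched O-glycan, had 56, 0, 28, 18 and 0 counts in the Control libraries and 0 and 1 in Cre. Of the sialyltransferases, St3gal1 had 21.8 ± 18.2 CPM in the Control libraries and 106 ± 50.2 CPM in Cre, where both values exceed all Control values (edgeR adjusted p = 0.473). St3gal4 had 22.6 ± 13.4 CPM in the Control libraries and 1.55 ± 2.20 CPM in Cre, below every Control library (edgeR adjusted p = 0.457). Fut7, Gcnt1 and St3gal4 entered the test through Control counts alone. Tpst2, which sulphates PSGL-1, had 2 to 132 counts in the Control libraries and 0 and 160 in Cre.

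Of 31 immunoglobulin-family and other adhesion molecules, 19 were tested, 8 with higher and 11 with lower fitted values (median −0.17). Cd96, a receptor for the nectin-like ligand CD155, had 66, 24, 15, 37 and 23 counts in the Control libraries and 242 and 277 in Cre. Both Cre libraries lie far above every Control library, at 158 ± 46.4 CPM against 20.03 ± 11.6 CPM, a log2 fold change of 2.95 ± 0.88 (edgeR unadjusted p = 0.00584, adjusted p = 0.367; DESeq2 adjusted p = 0.00697). Cd226 (DNAM-1), which shares that ligand, had 42, 0, 76, 163 and 192 counts in the Control libraries and 0 in both Cre libraries. This is at least 64.0-fold below the Control mean, counting error only (edgeR adjusted p = 0.367, DESeq2 adjusted p = 0.00271). Control replicate 2 was at 0 as well, and the gene entered the test through its Control counts alone. In this list 3 of the 19 tested genes were at 0 in both Cre libraries, where 1351 of all 9854 tested genes were.

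Alcam, a ligand of CD6, was at 0 in both Cre libraries and had 4, 0, 99, 53 and 131 counts in Control (edgeR adjusted p = 0.422, DESeq2 adjusted p = 0.0165). Cd99l2, with a role in leukocyte passage through vessels, was at 0 in Cre and had 0 to 55 counts in Control. Both entered the test through Control counts alone. The tetraspanin Cd53 had 310.3 ± 83.2 CPM in the Control libraries and 151 ± 92.2 CPM in Cre, below every Control library (edgeR adjusted p = 0.429). Other values rested on 1 library. Vcam1, the ligand of alpha 4 beta 1, had 812 counts in the first Cre library and 0 in the second, while Control libraries had 0, 0, 0, 99 and 38, and Cd48 had 1 and 382 in Cre. Cd2, its receptor on T cells, had 175 ± 127 and 82.4 ± 69.7 CPM (adjusted p = 0.596), and Pecam1 39.9 ± 24.0 and 36.3 ± 42.5 CPM (adjusted p = 0.984).

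**Figure D5:**
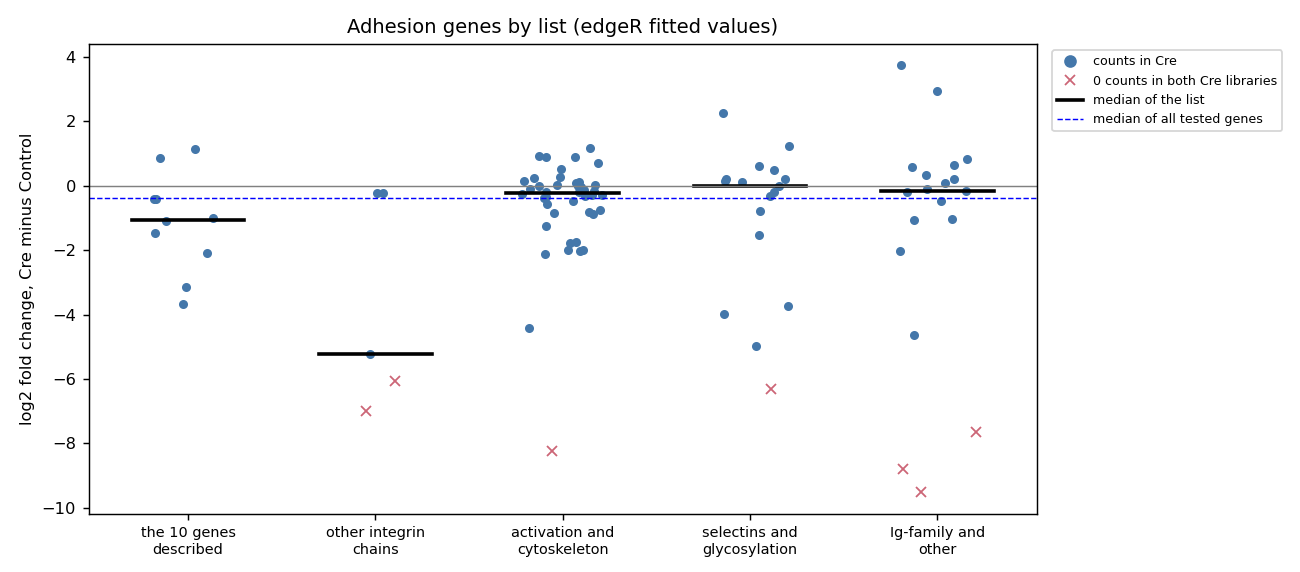
Fitted log2 fold change, Cre minus Control (y axis), of each tested gene in the 10 adhesion genes described and in the 4 other lists; bars are list medians, crosses are genes at 0 in both Cre libraries, whose fitted values are no bounds. The medians of the activation, selectin and immunoglobulin-family lists (−0.23, −0.0083 and −0.17) lie near the dashed median of all tested genes (−0.39), and that of the 5 other integrin chains lies at −5.22. Of those 5 chains, Itga5, Itga7 and Itgb8 entered the test through Control counts alone.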

How the data were processed

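CD4 T cells were profiled by 3′ UTR RNA-seq (NEB Next Ultra kit) in 5 Control and 2 Cre libraries, placed in groups by their titles. Counts were deposited as raw whole numbers for 116000 regions, per the file headers, and were summed per gene identifier. The aligner HISAT2 2.1.0, FastQC 0.11.8, DESeq2 and the build mm10 are listed in the submitters' processing notes. How regions were counted, strand included, is not given in the sources used here. Also deposited was the authors' comparison, with p-values and FDR from DESeq2, a fold as a ratio of normalized values, its log2 and the GC percent per gene, per the file headers.

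The main test was edgeR 4.0.16 (R 4.3.3; TMM, robust quasi-likelihood F-test, filterByExpr minimum count 10 and total 15), two-sided, Benjamini-Hochberg over 9854 genes, threshold 0.05, group as the only term. SEs were taken from the F statistic. It was tested on simulated data. Alternatives were DESeq2 1.42.0, limma 3.58.1 voom, other scalings and filters, leaving out libraries singly, a replicate block and, chosen after seeing the data, terminal regions only. Regions were placed with GENCODE M21 (same build); coordinates count from 1. Named genes beyond the 10 were up to 6 of smallest p per list plus a fixed set, and marker genes; 1 gene of the fixed set is not reported here. Itgb1 over Itgb7, the Selplg share, and other single features outside this rule were chosen after their values were seen. The genes and lists were chosen with earlier results of these data known. The series design calls the libraries biological replicates.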

Additional observations from a re-analysis of the deposited data

Results flagged for a closer look

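Among 45 sets of 5 Control values checked (43 named genes, the Itgb1 to Itgb7 ratio and the Selplg share), 5 had a single library far from the others by Dixon's test, where chance flags about 1 in 20. None was one of the 10 adhesion genes. Control replicate 1 had 14.8 CPM of Itgav against 0.58 CPM in the next library, and Control replicate 4 had 232 CPM of Evl against 113 CPM. Control replicate 3 had 81.2 CPM of Tpst2 against 16.6 CPM and 399 CPM of Cd2 against 147 CPM. Control replicate 2 had 216 CPM of Cd48 against 52.2 CPM.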

How the results depend on the processing

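The counts of called genes moved with the test and the Cre library used. Against 0 higher and 1 lower in the main edgeR test, dropping the filter gave 15 higher and 28 lower, DESeq2 35 and 607, and voom 3 and 0. With the replicate number as a replicate block there were 0 higher and 5 lower. Over single libraries left out, the counts ran from 0 to 17 higher and from 1 to 202 lower, and the highest in each direction came without Cre replicate 1. Of the 10 adhesion genes 0 were called under every setting that kept both Cre libraries. Without Cre replicate 1, 71.1% of 11613 tested genes had lower fitted values, with a median log2 difference of −2.40. The filter was rerun in that fit, so its set of genes differs from the 9854 of the main test. Labels give no meaning to the shared replicate numbers. Deviations of same-numbered libraries correlated at 0.003 and 0.002, so no pairing was seen. The check cannot exclude pairing, because the deviations of 2 Cre libraries from their mean mirror each other.

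Direction held for 9 of the 10 genes under every setting that gave them a value. With 10 counts required in 5 libraries, Itgae, Itga1 and Icam1 were not tested, nor was Itgae without Control replicate 3 or 4, or Itga1 without Control replicate 1 or 5 or at its terminal region only. Of 32 tested genes named from the other lists, 17 moved by over 1.5 times without 1 or the other Cre library. The share over all tested genes was not worked out, so whether 17 of 32 is unusual cannot be told. Icam1 turned to −2.39 with the replicate block and −0.93 with voom and ran from −7.58 to 1.89 over left-out libraries. Among other genes none of which passed edgeR, Rap1b turned to −0.066, Rassf5 to −0.32 and Cd48 to −2.29 with the replicate block, and Itgb3 to 0.29, Tpst2 to −0.93 and Cd48 to −2.14 with voom. Over left-out libraries the log2 fold change ran from −3.00 to 0.69 for Itga6, −0.73 to 0.18 for Itgb3, −0.0034 to 0.28 for Rap1b, −0.57 to 0.84 for Rassf5, −8.27 to 2.64 for Tpst2, −7.69 to 5.26 for Vcam1, −2.65 to 0.79 for Pecam1 and −6.91 to 1.85 for Cd48. The lowest values of Icam1, Tpst2 and Vcam1 come from fits whose only Cre library had 0 counts of the gene, and they depend on the prior count. The Selplg share difference ran from −18.4 to 40.7 points. The cause was not tested.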
